A study of Mus musculus with 18 samples.

Results

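Genes of the TGF-β, BMP and activin pathway were examined in 18 RNA-seq libraries of mouse adipose tissue. Members were chosen by symbol: BMPs and their receptors, GDFs, TGF-βs and their receptors, inhibin and activin subunits, activin receptors, SMADs, follistatin and the follistatin-like genes, on rows that carry an Entrez gene identifier. The rule found 57 of the 52093 symbols in the files, on 61 transcript rows, and the row with the highest mean level was used where a symbol had several. Among the 57, Bmp1, Bmp2k, Tgfb1i1 and Tgfbrap1 share the spelling but encode a metalloproteinase, a kinase, a focal adhesion protein and a receptor-associated protein.

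The libraries came from wild-type male C57BL/6 mice, aged 16 weeks, after 12 weeks of high-fat diet (HFD). There were 6 libraries of adipocytes from inguinal white adipose tissue (iWAT), 6 of adipocytes from epididymal white adipose tissue (eWAT) and 6 of brown adipose tissue (BAT). White adipocytes were the floating cells after collagenase digestion and filtering, whereas BAT was frozen and extracted whole, although its cell type label names adipocytes. The labels also hold a treatment field that reads regular chow, against the titles and the design, and they give the strain as C57BL/6 in one field and as C57BL/6J in another, while a note of the study names C57BL/6NTac. All groups shared genotype and diet, so the comparisons are between tissues. In those with BAT, preparation differed along with tissue, and its part in the values cannot be told apart.

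TGF-β family ligands are secreted dimers that bind a type II receptor, which then switches on a type I receptor kinase. TGF-βs and activins act mainly through SMAD2 and SMAD3 and BMPs through SMAD1, SMAD5 and SMAD9, and both branches use SMAD4 to act on genes in the nucleus. SMAD6 and SMAD7 restrain the receptors, while follistatins and other secreted antagonists trap the ligands. In fat, BMPs are known for committing progenitors to the adipocyte lineage, activin B for acting on adipocytes through the receptor encoded by Acvr1c, and TGF-β1 for its role in fibrosis.

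Levels are given as RPKM (reads scaled to transcript length and library total), which can be compared between genes, as mean ± SD of the 6 libraries of a tissue (n = 6) or as lowest to highest. In values, iWAT and eWAT stand for the adipocytes of these depots. Reads on rows ranged from 26768529 to 30166441 per library in iWAT, 24655056 to 37438994 in eWAT and 27402247 to 42518483 in BAT. Differences between tissues are log2 fold changes with their SE from edgeR's quasi-likelihood test, and a gene was called where its p-value, adjusted over all genes tested, was under 0.05. edgeR scales each library by a TMM factor, which assumes that most genes do not differ. These factors averaged 1.35 in iWAT adipocytes against 0.745 in BAT, and 1.37 in eWAT adipocytes against 0.732 in BAT. RPKM does not use these factors, and the library total behind it differs from the reads on rows. That total was 27307031 to 31182273 in iWAT, 26526123 to 41145280 in eWAT and 22935346 to 38571612 in BAT. With both differences, a ratio of RPKM between a white depot and BAT was higher than edgeR's fold change. The median gap over all genes tested was 0.61 on the log2 scale for iWAT and 0.59 for eWAT. Whether groups overlap was read on counts scaled by TMM and library total. In bulk samples, fewer cells of a type and less RNA per cell cannot be told apart, and p-values measure only the spread between these samples. BAT was prepared in another way and sequenced on other lanes than the white depots. Preparation, lane and tissue therefore cannot be told apart in comparisons with BAT.

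Markers of cell types differed widely between the tissues. Summed over 8 macrophage markers, the level was 475 to 925 RPKM in iWAT, 2689 to 4293 in eWAT and 25.6 to 51.1 in BAT, and all 8 were called higher in eWAT than in iWAT adipocytes (largest for Itgax, -2.46, and Itgam, -2.45) and higher in either depot than in BAT. Summed adipocyte markers ranged from 11447 to 16019.9 RPKM in iWAT, 2570.1 to 7946 in eWAT and 5639 to 6909 in BAT, and 7 of 7 were called higher in iWAT than in eWAT adipocytes (largest for Plin1, 1.63, and Adipoq, 1.55). Summed endothelial markers ranged from 109 to 314, 37.4 to 79.9 and 77.8 to 112 RPKM in the same order, and fibroblast and progenitor markers from 589 to 735, 169 to 301 and 67.4 to 96.7 RPKM. Dpt alone averaged 476 RPKM of a mean fibroblast sum of 666 in iWAT, 85.9 of 209 in eWAT and 16.3 of 82.8 in BAT. Of the 7 fibroblast and progenitor markers, 3 were called higher and 2 lower in eWAT adipocytes than in BAT (median -0.28). None of the adipocyte, macrophage, endothelial or fibroblast markers was at the floor, that is, at most 3 reads in every library of a tissue. Brown adipocyte markers ranged from 2240.1 to 3036 RPKM in BAT, 12.8 to 17.9 in iWAT and 3.59 to 6.05 in eWAT adipocytes. In BAT, Schwann cell markers ranged from 50.8 to 67.1 RPKM, smooth muscle and pericyte markers from 99.6 to 140.5 and skeletal muscle markers from 1.52 to 106. Mesothelial, T cell, B cell and mast cell markers summed to at most 9.91 RPKM in every library. Lrrn4 made up 8.30 RPKM of a mean mesothelial sum of 8.32 in BAT. Of 4 mesothelial markers tested between the depots, 3 were called higher in eWAT and 0 in iWAT adipocytes (median -5.85). Against BAT, 3 of 4 were called higher and 1 lower in eWAT adipocytes (median 6.28). Of the 5 mesothelial markers, 2 were at the floor in iWAT and 3 in BAT, so the size of these medians rests on few reads.

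Of the 57 genes, 32 reached a mean of 1 RPKM in iWAT, 32 in eWAT and 29 in BAT, and 28 did so in all 3 tissues. All of these counts include the rows used for Gdf9, Bmpr2 and Bmp2k, whose reads may not be those of the named gene. Another 23 stayed below 1 RPKM in every tissue, and 8 of these never had more than 3 reads in a library (Inhbc, Inhbe, Bmp10, Bmp15, Gdf2, Gdf7, Fstl4 and Fstl5). Leaving out Gdf9, whose row shares bases with another gene, the highest mean levels were those of Fstl1 in iWAT adipocytes (30.0 ± 6.74 RPKM), Gdf15 in eWAT adipocytes (59.4 ± 13.5) and Tgfbr2 in BAT (8.39 ± 1.13). In all, 13 of the 57 genes had too few reads to be tested in any comparison. The rows of 33 members overlap the row of another symbol, in 23 cases one with more than 3 reads in a library. Overlaps and shared bases are counted over whole spans, introns included, so they can exceed the bases that exons share. Where exons of such rows overlap on opposite strands, reads cannot be told apart, as the library kit is not stated to keep strand.

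Between iWAT and eWAT adipocytes, 43 genes had a mean count of at least 10 and were tested, and 30 were called, 24 higher in iWAT and 6 higher in eWAT. The 24 include the rows of Gdf9 and Bmpr2. Of all 19623 genes tested, 68.6% were called, 34.1% higher in iWAT and 34.5% higher in eWAT. The share of pathway genes called was near this background, while most of their calls were towards iWAT, with a median log2 fold change of 0.35 against 0.00 over all genes. The libraries of the depots did not overlap for 19 genes (43.5% of all genes tested), and 17 calls were at least 2-fold (24.9% of all genes tested).

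Against BAT, 42 genes were tested in iWAT adipocytes and 34 were called, 25 higher in iWAT and 9 higher in BAT. The 9 include the row of Gdf9 and the row used for Bmpr2, whose other row went the other way. Of all 19745 genes tested, 75.3% were called, 38.1% higher in iWAT and 37.2% higher in BAT. The median log2 fold change was 0.63 against 0.01 over all genes. Libraries did not overlap for 28 genes (56.4% of all genes tested) and 21 calls were at least 2-fold (37.3%). Without scaling beyond the total count, 34 were called higher in iWAT (69.4% of all genes tested) and 6 in BAT (15.5%), and the median of all genes was 0.87.

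In eWAT adipocytes against BAT, 44 genes were tested and 35 were called, 19 higher in eWAT and 16 higher in BAT. The 16 again include these rows of Gdf9 and Bmpr2. Of all 20076 genes tested, 82.5% were called, 41.1% higher in eWAT and 41.4% higher in BAT. The median log2 fold change was 0.18 against -0.02 over all genes. Libraries did not overlap for 26 genes (66.3% of all genes tested) and 23 calls were at least 2-fold (49.0%). Without scaling beyond the total count, 29 were called higher in eWAT (64.6% of all genes tested) and 7 in BAT (20.3%), and the median of all genes was 0.89. The 3 comparisons share libraries, so their values are given side by side.

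**Figure D1:**
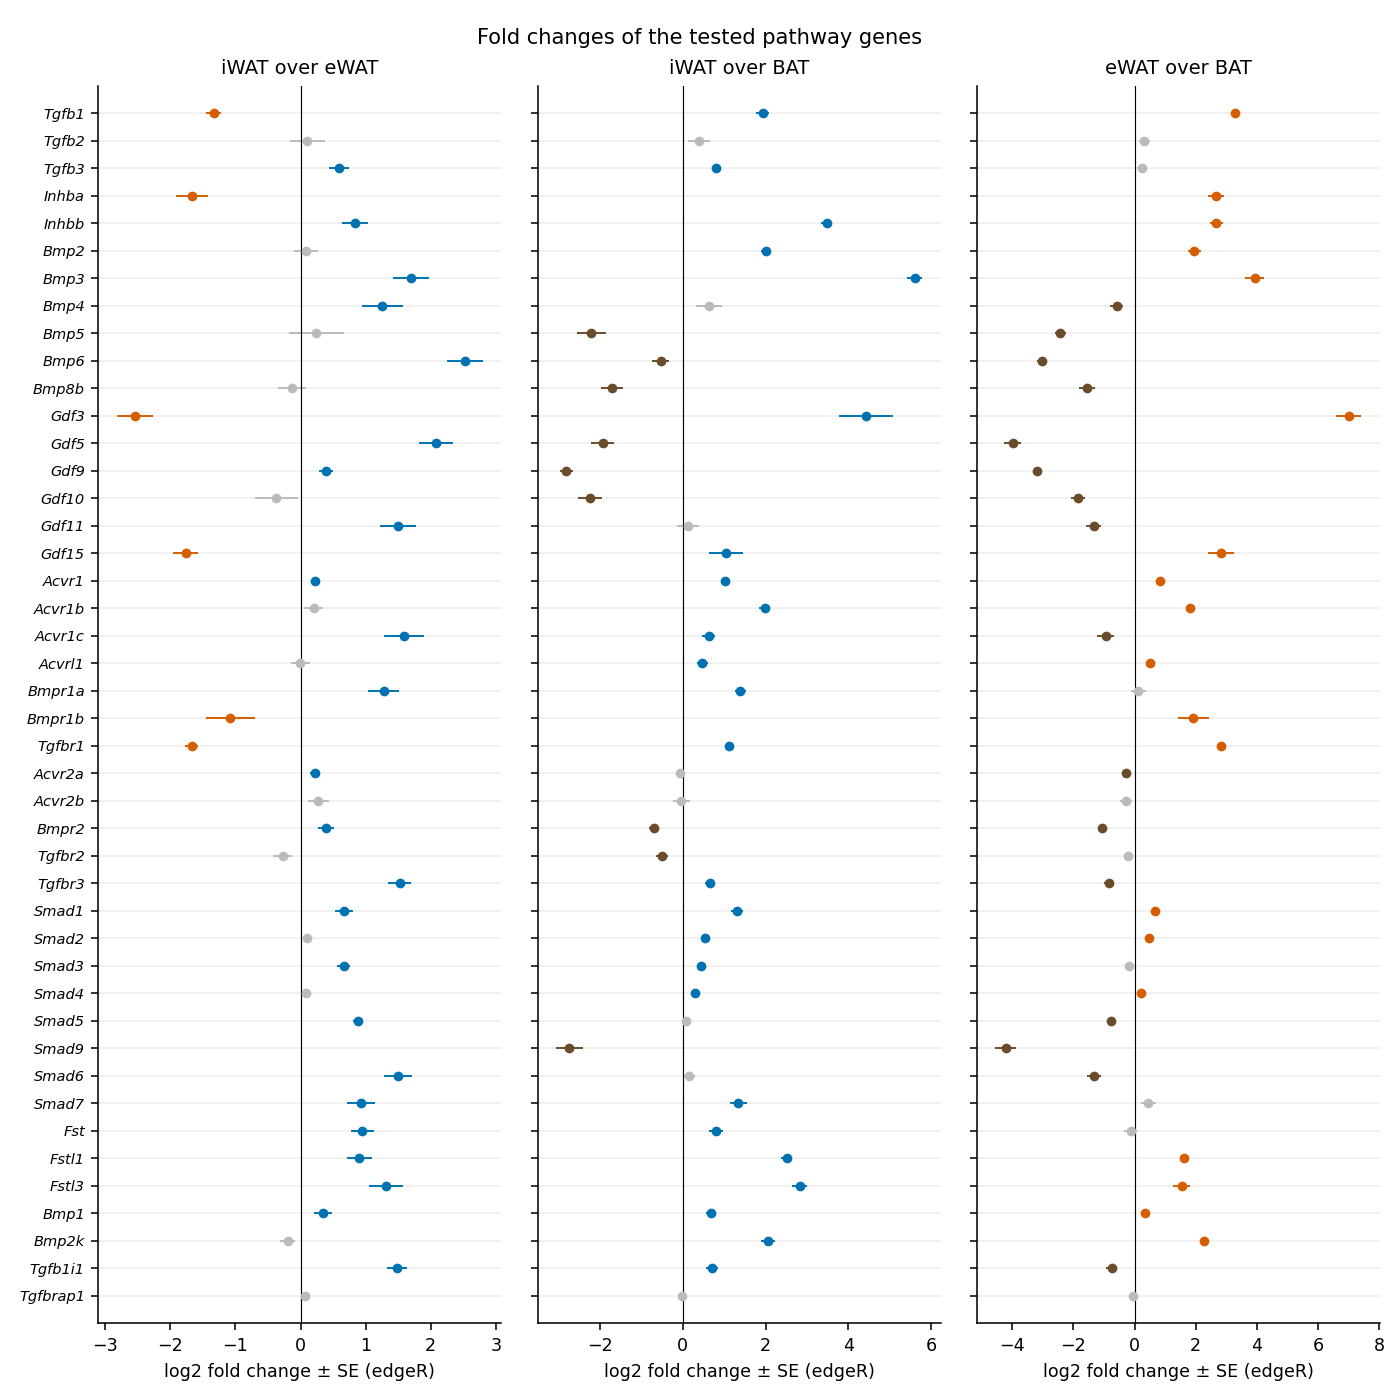
Log2 fold change with its SE (horizontal axis) of each tested pathway gene (vertical axis) in the 3 comparisons of tissues. Points are coloured by the tissue in which the gene was called higher, and grey points were not called. Bmp3 lies farthest towards iWAT adipocytes over BAT (5.60), and Smad9 (-4.22) and Gdf5 (-3.99) farthest towards BAT over eWAT adipocytes.

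Among the TGF-β ligands, Tgfb1 (chr7:26472021-26490096, plus strand, mm9) encodes the isoform best known from inflamed and fibrotic tissue. Its level was 30.2 to 41.4 RPKM (median 33.2) in eWAT adipocytes, 10.8 to 18.1 (median 13.7) in iWAT adipocytes and 1.36 to 3.12 (median 2.40) in BAT. Every eWAT library lay above every iWAT library, and every iWAT library above every BAT library. It was 2.52-fold higher in eWAT than in iWAT adipocytes (log2 fold change of iWAT over eWAT -1.34, SE 0.11, adjusted p = 6.02e-07), 3.82-fold higher in iWAT adipocytes than in BAT (1.93, SE 0.15, adjusted p = 1.45e-08) and 9.84-fold higher in eWAT adipocytes than in BAT (3.30, SE 0.15, adjusted p = 2.37e-11). Tgfb3, a related isoform, had 2.78 ± 0.183 RPKM in iWAT, 1.86 ± 0.516 in eWAT and 1.04 ± 0.179 in BAT. It was called higher in iWAT than in eWAT adipocytes (0.58, SE 0.15, with overlap) and than in BAT (0.81, SE 0.10). The span of its row overlaps that of Ttll5 on the opposite strand, without an exon overlap in GENCODE vM1. Tgfb2 stayed at or below 0.721 RPKM in every library and was not called in any comparison.

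Of the activin and inhibin subunits, only Inhbb reached 1 RPKM (chr1:121312042-121318825, minus strand). It encodes the βB chain of activin B. Its level was 15.9 to 26.4 RPKM (median 20.8) in iWAT, 6.47 to 17.3 (median 12.2) in eWAT and 0.871 to 1.57 (median 1.25) in BAT. The white depots overlapped each other, and both lay wholly above BAT. Inhbb was 11.2-fold higher in iWAT adipocytes than in BAT (3.48, SE 0.14, adjusted p = 5.64e-12), 6.37-fold higher in eWAT adipocytes than in BAT (2.67, SE 0.21, adjusted p = 1.14e-08) and 1.78-fold higher in iWAT than in eWAT adipocytes (0.83, SE 0.20, adjusted p = 0.00205).

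Inhba, the βA chain, was called in the other direction between the white depots (-1.67, SE 0.25, adjusted p = 6.87e-05). It had 0.500 to 0.873 RPKM (34 to 53 reads) in eWAT adipocytes, 0.108 to 0.308 (6 to 19 reads) in iWAT adipocytes and 0.0202 to 0.119 (1 to 8 reads) in BAT. The depots did not overlap, and eWAT adipocytes also lay above BAT (2.66, SE 0.26), whereas iWAT adipocytes and BAT had too few reads for a test. Inha, the α chain of inhibins, had at most 11 reads in a library.

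Among BMP ligands, Bmp3 (chr5:99283434-99309979, plus strand), a member that opposes other BMPs, showed the widest difference. Its level was 11.4 to 18.5 RPKM (median 14.3) in iWAT, 1.89 to 6.83 (median 4.99) in eWAT and 0.121 to 0.227 (median 0.207) in BAT, where 16 to 34 reads per library stood behind the values. No tissue overlapped another. Bmp3 was 48.6-fold higher in iWAT adipocytes than in BAT (5.60, SE 0.18, adjusted p = 1.09e-12), 15.3-fold higher in eWAT adipocytes than in BAT (3.93, SE 0.32, adjusted p = 1.59e-08) and 3.23-fold higher in iWAT than in eWAT adipocytes (1.69, SE 0.28, adjusted p = 1.36e-04).

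Bmp6 (chr13:38436995-38592183, plus strand), known as the BMP that reports iron stores, was low in eWAT adipocytes. Its level was 3.82 to 11.3 RPKM (median 6.80) in iWAT, 0.773 to 1.72 (median 1.32) in eWAT and 5.95 to 7.87 (median 6.76) in BAT. All eWAT libraries lay below all others. It was 5.77-fold higher in iWAT than in eWAT adipocytes (2.53, SE 0.27, adjusted p = 4.56e-06) and 8.20-fold higher in BAT than in eWAT adipocytes (-3.04, SE 0.15, adjusted p = 4.0e-11). BAT was called higher than iWAT adipocytes (-0.53, SE 0.20, adjusted p = 0.0268), with overlap, and without scaling this value turned to 0.34. The row shares 236 bases with Txndc5 on the opposite strand, whose level was 13.3 ± 0.596 RPKM in iWAT, 15.2 ± 0.875 in eWAT and 5.40 ± 0.457 in BAT. Exons of the pair overlap in GENCODE vM1, so reads in that stretch cannot be told apart.

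Bmp2, which drives bone and fat commitment, had 3.92 ± 0.536 RPKM in iWAT, 3.72 ± 1.31 in eWAT and 0.637 ± 0.0995 in BAT. It was not called between the white depots (0.09, SE 0.19) and was 4.04-fold and 3.88-fold higher there than in BAT without overlap. Bmp4, known for committing progenitors to fat, stayed below 1 RPKM on average (0.927 ± 0.537, 0.386 ± 0.0855 and 0.384 ± 0.106) and was called higher in iWAT than in eWAT adipocytes (1.26, SE 0.32) and in BAT than in eWAT adipocytes (-0.59, SE 0.20, turning to 0.30 without scaling), with overlap in each case.

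Bmp5 and Bmp8b were called lower in both white depots than in BAT, both at levels under 1 RPKM. Bmp5 had 0.292 to 0.591 RPKM in BAT, 0.0571 to 0.452 in iWAT adipocytes and 0.0952 to 0.196 in eWAT adipocytes, with log2 fold changes of -2.21, SE 0.35 for iWAT over BAT and -2.42, SE 0.19 for eWAT over BAT. The highest iWAT value came from the library numbered 5, and without it the value of iWAT over BAT was -2.83. Bmp8b, a BMP linked to thermogenesis, had 0.496 ± 0.181 RPKM in BAT, 0.233 ± 0.0586 in iWAT adipocytes and 0.255 ± 0.0703 in eWAT adipocytes (-1.70, SE 0.27, and -1.54, SE 0.26). The span of its row, introns included, shares 4985 bases with Ppie on the opposite strand, and exons of the pair overlap in GENCODE vM1. Bmp8a is a near-identical copy, so the value is uncertain. Bmp7 and Bmp8a had at most 7 and 4 reads in a library.

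**Figure D2:**
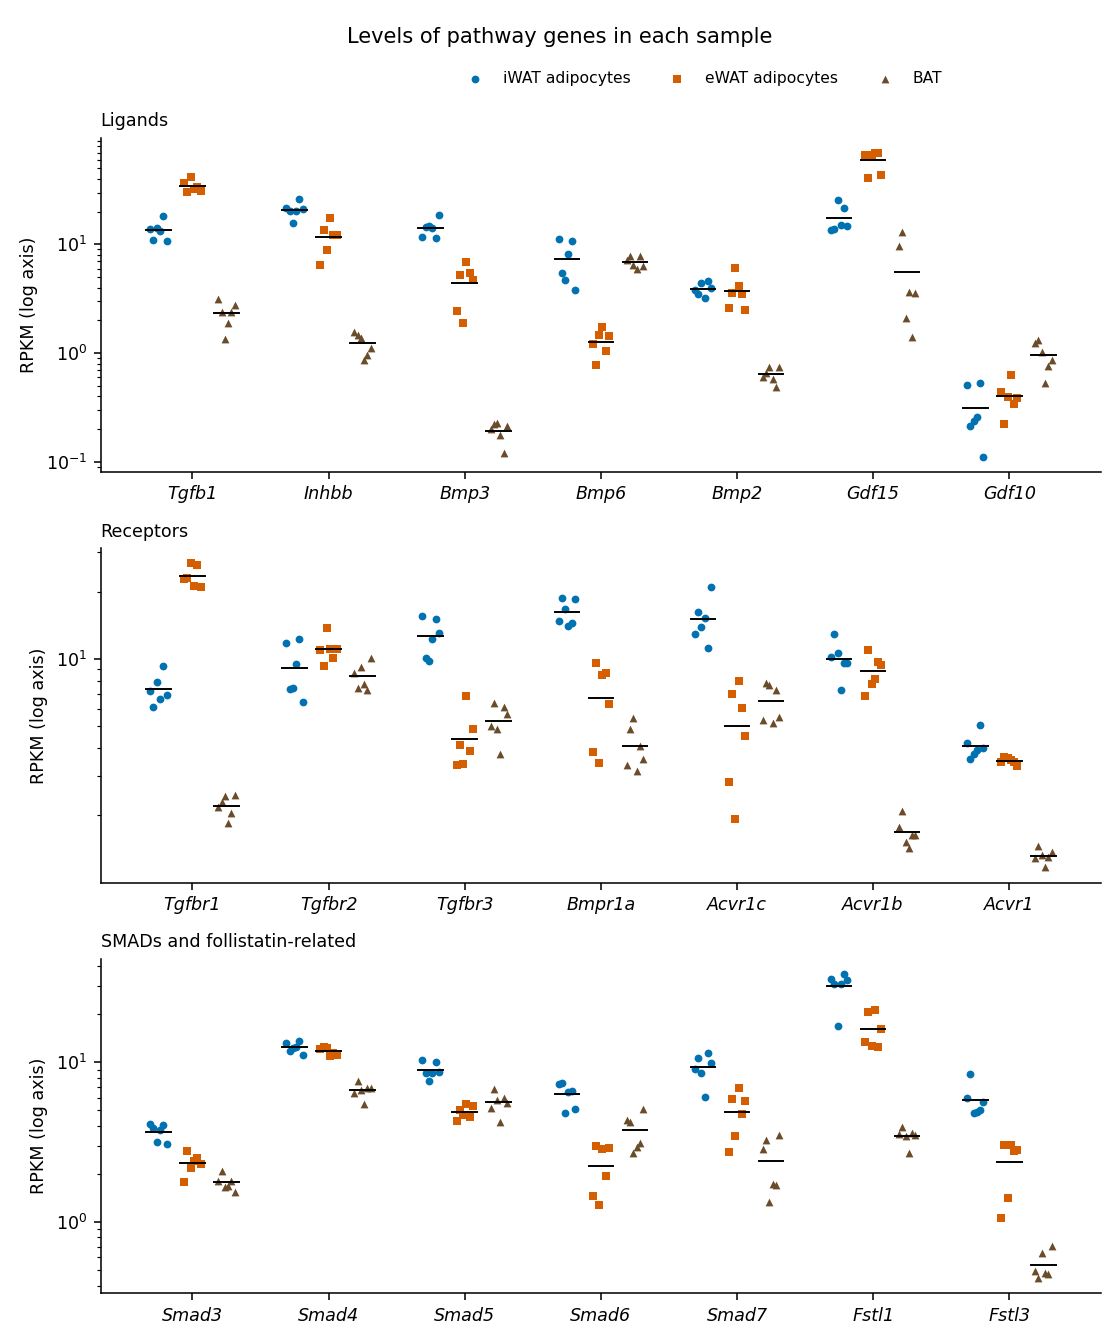
RPKM (log axis) of 21 pathway genes in each of 6 libraries of iWAT adipocytes (blue circles), eWAT adipocytes (orange squares) and BAT (brown triangles), with a black line at each mean. Tgfb1, Gdf15 and Tgfbr1 are highest in eWAT adipocytes, Bmp3, Bmpr1a and Acvr1c in iWAT adipocytes, and Bmp6 is lowest in eWAT adipocytes.

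Among the GDFs, Gdf15 (chr8:73153292-73156355, minus strand) encodes a stress-induced hormone that acts on the brainstem to lower food intake. Its level was 40.6 to 69.8 RPKM (median 66.3) in eWAT adipocytes, 13.6 to 25.4 (median 15.1) in iWAT adipocytes and 1.40 to 13.0 (median 3.64) in BAT. The lowest eWAT library lay above the highest of the other tissues, whereas iWAT adipocytes and BAT overlapped after scaling. It was 3.40-fold higher in eWAT than in iWAT adipocytes (-1.76, SE 0.19, adjusted p = 4.49e-06) and 7.14-fold higher in eWAT adipocytes than in BAT (2.84, SE 0.43, adjusted p = 1.71e-05). The call of iWAT over BAT (1.05, SE 0.41, adjusted p = 0.0293) was lost without iWAT library 3 or any one of BAT libraries 5, 16 and 18 (0.88 to 0.98, adjusted p = 0.0585 to 0.0668).

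Gdf3 (chr6:122555421-122560105, minus strand), a ligand of the receptor encoded by Acvr1c, had 95 to 204 reads per library in eWAT adipocytes, 10 to 41 in iWAT adipocytes and 0 to 2 in BAT. These were 1.69 to 3.10 RPKM (median 2.15) in eWAT and 0.172 to 0.635 (median 0.287) in iWAT adipocytes. The depots did not overlap, and Gdf3 was 5.83-fold higher in eWAT (-2.54, SE 0.28, adjusted p = 5.38e-06). Against BAT taken at the floor of 3 reads per library, it was at least 15.0-fold higher in eWAT and at least 2.65-fold higher in iWAT adipocytes, a floor that covers counting error only.

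Gdf5, a BMP-like ligand best known from joints, had 0.714 to 2.47 RPKM (median 1.34) in BAT, 0.314 to 0.787 (median 0.619) in iWAT adipocytes and 0.102 to 0.195 (median 0.128, 7 to 13 reads) in eWAT adipocytes. No tissue overlapped another on scaled counts. It was 15.9-fold higher in BAT than in eWAT adipocytes (-3.99, SE 0.29, adjusted p = 4.30e-09), 3.83-fold higher in BAT than in iWAT adipocytes (-1.94, SE 0.27, adjusted p = 8.65e-06) and 4.23-fold higher in iWAT than in eWAT adipocytes (2.08, SE 0.26, adjusted p = 1.33e-05). The span of its row shares 1728 bases with an Ensembl gene without a name on the opposite strand. GENCODE vM1 gives no exon overlap for the pair, but the value of Gdf5 is uncertain.

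Gdf10, also called BMP3b, had 0.958 ± 0.299 RPKM in BAT, 0.310 ± 0.170 in iWAT adipocytes and 0.401 ± 0.133 in eWAT adipocytes. It was called higher in BAT than in iWAT (-2.24, SE 0.29) and eWAT adipocytes (-1.84, SE 0.23) without overlap. Gdf11, close kin of myostatin, had 0.181 ± 0.0609 RPKM in eWAT adipocytes, 0.506 ± 0.206 in iWAT adipocytes and 0.301 ± 0.0964 in BAT, and was called in both comparisons with eWAT (1.5, SE 0.28 for iWAT over eWAT and -1.34, SE 0.25 for eWAT over BAT), with overlap. Gdf1 and Gdf6 had at most 14 and 12 reads in a library.

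Gdf9 is known as an oocyte factor, yet its row read 68.0 ± 14.6 RPKM in BAT, 14.7 ± 1.5 in iWAT adipocytes and 11.3 ± 1.5 in eWAT adipocytes. The row (chr11:53244074-53251406, plus strand) shares 260 bases with Uqcrq, which encodes a subunit of mitochondrial complex III on the opposite strand, and GENCODE vM1 has no Gdf9 exon in that stretch. The ratio of the Gdf9 to the Uqcrq value was 0.506 ± 0.00737 in iWAT, 0.519 ± 0.0124 in eWAT and 0.512 ± 0.00584 in BAT, while Uqcrq itself was at 29.1 ± 2.95, 21.8 ± 3.10 and 133 ± 27.8 RPKM. Both rows thus moved together over the 18 libraries. The calls of the Gdf9 row (0.40, SE 0.11 for iWAT over eWAT, -2.81, SE 0.15 for iWAT over BAT and -3.18, SE 0.15 for eWAT over BAT) cannot be read as those of Gdf9 mRNA.

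**Figure D3:**
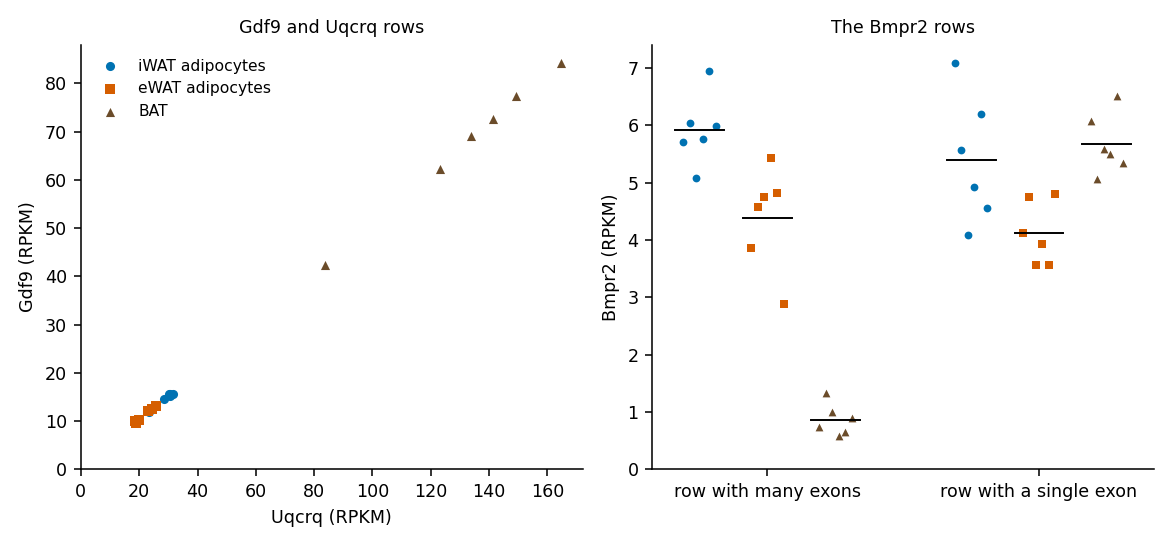
Left, RPKM of Gdf9 against RPKM of Uqcrq, 1 point per library of iWAT adipocytes (blue circles), eWAT adipocytes (orange squares) and BAT (brown triangles), which lie along 1 line. Right, RPKM of the 2 rows of Bmpr2 in the same libraries, where the row with a single exon is far above the row with many exons in BAT alone.

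Of the 7 type I receptor genes, 3 were called higher in iWAT and 2 in eWAT adipocytes (34.1% and 34.5% of all genes tested). Against BAT, 6 of 6 tested were called higher in iWAT adipocytes (38.1% of all genes tested). In eWAT adipocytes, 5 of 7 were called higher and 1 lower than in BAT (41.1% and 41.4%). Tgfbr1 (chr4:47366094-47427803, plus strand) encodes the kinase that carries the TGF-β signal. Its level was 21.0 to 26.7 RPKM (median 22.8) in eWAT adipocytes, 6.12 to 9.29 (median 7.06) in iWAT adipocytes and 1.84 to 2.46 (median 2.23) in BAT. No tissue overlapped another. It was 3.19-fold higher in eWAT than in iWAT adipocytes (-1.67, SE 0.09, adjusted p = 1.22e-07), 7.06-fold higher in eWAT adipocytes than in BAT (2.82, SE 0.10, adjusted p = 9.34e-13) and 2.17-fold higher in iWAT adipocytes than in BAT (1.12, SE 0.09, adjusted p = 2.38e-08).

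Bmpr1a (chr14:35223920-35316527, minus strand), a main type I receptor of BMPs, differed between the depots in the other direction. Its level was 14.0 to 18.7 RPKM (median 15.8) in iWAT, 3.42 to 9.6 (median 7.38) in eWAT and 3.16 to 5.43 (median 3.83) in BAT. All iWAT libraries lay above all others. It was 2.43-fold higher in iWAT than in eWAT adipocytes (1.28, SE 0.24, adjusted p = 4.17e-04) and 2.61-fold higher in iWAT adipocytes than in BAT (1.39, SE 0.14, adjusted p = 1.68e-07), and was not called between eWAT adipocytes and BAT (0.13, SE 0.23, adjusted p = 0.619).

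Acvr1c (chr2:58119864-58210306, minus strand) encodes ALK7, a receptor enriched in fat. Its level was 11.2 to 20.9 RPKM (median 14.5) in iWAT, 1.92 to 7.93 (median 5.28) in eWAT and 5.15 to 7.82 (median 6.40) in BAT. The depots did not overlap, and it was 3.01-fold higher in iWAT (1.59, SE 0.31, adjusted p = 5.10e-04). Against BAT, with overlap, it was called higher in iWAT adipocytes (0.62, SE 0.15) and lower in eWAT adipocytes (-0.95, SE 0.27). Adipocyte markers were also higher in iWAT than in eWAT adipocytes, with a median log2 fold change of 1.38, and their part in the differences of Acvr1c, Bmpr1a and Bmp3 between the depots was not tested.

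Acvr1b, the classical activin type I receptor, had 10.0 ± 1.85 RPKM in iWAT, 8.79 ± 1.53 in eWAT and 1.68 ± 0.233 in BAT. It was not called between the depots (0.20, SE 0.14) and was 3.94-fold and 3.49-fold higher there than in BAT without overlap. Acvr1, a type I receptor used by BMPs, had 4.08 ± 0.539, 3.51 ± 0.109 and 1.32 ± 0.0953 RPKM in the same order, and was called in each comparison (0.22, SE 0.07 for iWAT over eWAT, 1.02, SE 0.08 for iWAT over BAT, 0.82, SE 0.07 for eWAT over BAT). Acvrl1, known from endothelium, had 7.64 ± 1.91, 7.65 ± 1.01 and 3.59 ± 0.586 RPKM, was not called between the depots (-0.00, SE 0.14) and was called higher than in BAT in both (0.47, SE 0.14, and 0.50, SE 0.11). Bmpr1b had at most 41 reads in a library and was called higher in eWAT than in iWAT adipocytes (-1.08, SE 0.37) and than in BAT (1.92, SE 0.51), with overlap.

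Promoter windows of Tgfbr1 and Bmpr1a are printed because these receptors differed between the depots in opposite directions, and that of Smad6 because it was the only member with a full SMAD palindrome. They are RefSeq windows of 300 bases, 250 before to 50 after the start of the gene, on GRCm38.p6, a later build than the mm9 of the files, and 41 of the 57 genes had one. Capitals mark the motif, which was searched on both strands: GGCGCC, a GC-rich SMAD site, in Tgfbr1 and Bmpr1a, and GTCTAGAC, the palindrome, in Smad6. GGCGCC was in the windows of 10 of the 41 genes (24.4%) and of 13.4% of all 27025 genes, and GTCTAGAC in 1 of the 41 and 0.248% of all genes. The direct repeat bound by PPAR was in none of the 41 and in 0.0481% of all genes. A match is a run of letters, and binding was not measured here. The windows run 5′ to 3′ on the strand of the gene, at chr4:47352972-47353271 (plus) for Tgfbr1, chr14:34502497-34502796 (minus) for Bmpr1a and chr9:64022010-64022309 (minus) for Smad6.
Tgfbr1: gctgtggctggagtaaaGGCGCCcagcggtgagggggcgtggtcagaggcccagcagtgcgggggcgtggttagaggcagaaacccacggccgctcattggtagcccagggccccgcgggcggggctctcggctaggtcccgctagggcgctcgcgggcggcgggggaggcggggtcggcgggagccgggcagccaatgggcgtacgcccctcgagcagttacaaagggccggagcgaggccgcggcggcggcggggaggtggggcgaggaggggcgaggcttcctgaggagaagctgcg
Bmpr1a: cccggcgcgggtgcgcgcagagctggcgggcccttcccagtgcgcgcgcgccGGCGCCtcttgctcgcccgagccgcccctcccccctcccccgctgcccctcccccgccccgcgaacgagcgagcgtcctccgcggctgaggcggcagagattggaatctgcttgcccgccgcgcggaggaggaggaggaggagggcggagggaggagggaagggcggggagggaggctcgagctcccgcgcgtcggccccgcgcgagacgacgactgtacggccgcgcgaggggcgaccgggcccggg
Smad6: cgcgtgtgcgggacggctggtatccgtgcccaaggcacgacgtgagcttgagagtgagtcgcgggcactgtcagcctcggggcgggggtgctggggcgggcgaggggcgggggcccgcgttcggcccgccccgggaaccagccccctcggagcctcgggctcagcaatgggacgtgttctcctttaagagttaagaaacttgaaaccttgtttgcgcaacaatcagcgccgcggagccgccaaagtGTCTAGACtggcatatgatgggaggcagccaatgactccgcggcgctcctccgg

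Of the type II receptors and the co-receptor Tgfbr3, 3 of 5 were called higher in iWAT and 0 in eWAT adipocytes (34.1% and 34.5% of all genes tested). Tgfbr2, which binds TGF-β, had 9.12 ± 2.47 RPKM in iWAT, 11.0 ± 1.52 in eWAT and 8.39 ± 1.13 in BAT. Its libraries overlapped in all 3 comparisons. It was called only between iWAT adipocytes and BAT, as higher in BAT (-0.51, SE 0.15, adjusted p = 0.00534), and this value turned to 0.37 without scaling. Tgfbr3, or betaglycan, which presents TGF-β2 and inhibins, had 9.83 to 15.5 RPKM (median 12.6) in iWAT, 3.36 to 6.82 (median 4.0) in eWAT and 3.74 to 6.36 (median 5.35) in BAT. The iWAT libraries lay above the others, with log2 fold changes of 1.52, SE 0.18, adjusted p = 8.54e-06 over eWAT adipocytes and 0.65, SE 0.11 over BAT. BAT was called higher than eWAT adipocytes (-0.85, SE 0.15), a value that turned to 0.05 without scaling.

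Acvr2a, a type II receptor of activins, had 3.38 ± 0.406, 2.91 ± 0.182 and 2.33 ± 0.144 RPKM in iWAT, eWAT and BAT, and was called higher in iWAT than in eWAT adipocytes (0.22, SE 0.07) and in BAT than in eWAT adipocytes (-0.27, SE 0.07), where the value turned to 0.64 without scaling. Its row shares 516 bases with Orc4 on the opposite strand, and exons of the pair overlap in GENCODE vM1, so reads in that stretch cannot be told apart. Acvr2b, its paralog, stayed at or below 0.711 RPKM and was not called in any comparison.

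For Bmpr2, the type II receptor of BMPs, the direction against BAT depended on the row. The row with the highest mean level was a single exon (chr1:59933715-59935858) beyond the exons that GENCODE vM1 gives to Bmpr2, with 5.40 ± 1.11 RPKM in iWAT, 4.12 ± 0.551 in eWAT and 5.68 ± 0.523 in BAT. This row shares 721 bases with LOC100504533 on the same strand, which had 9.98, 6.94 and 10.7 RPKM in the same order, so its reads may not be those of Bmpr2. On this row BAT was called higher than iWAT (-0.69, SE 0.12) and eWAT adipocytes (-1.05, SE 0.10), and the first of these values turned to 0.18 without scaling. The other row, of 18 exons (chr1:59820244-59928822), had 5.92 ± 0.612, 4.38 ± 0.890 and 0.867 ± 0.278 RPKM, and there iWAT (2.17, SE 0.15) and eWAT adipocytes (1.75, SE 0.18) were higher than BAT. The ratio of the first to the second row was 0.912 ± 0.171 in iWAT, 0.997 ± 0.362 in eWAT and 7.17 ± 2.44 in BAT. Between the white depots, both rows were called higher in iWAT (0.39, SE 0.13, and 0.44, SE 0.13).

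SMADs of the BMP branch that could be tested between the depots, Smad1 and Smad5, were both called higher in iWAT. Smad1 had 4.29 ± 1.20 RPKM in iWAT, 2.70 ± 0.294 in eWAT and 1.12 ± 0.213 in BAT, without overlap (0.67, SE 0.14 for iWAT over eWAT, 1.31, SE 0.15 for iWAT over BAT and 0.68, SE 0.10 for eWAT over BAT). Smad5 had 8.97 ± 1.01, 4.89 ± 0.460 and 5.60 ± 0.845 RPKM and was 1.84-fold higher in iWAT than in eWAT adipocytes without overlap (0.88, SE 0.08, adjusted p = 1.15e-06). It was not called between iWAT adipocytes and BAT (0.07, SE 0.08), and the call of BAT over eWAT adipocytes (-0.78, SE 0.08) turned to 0.12 without scaling. Smad9, the least abundant of these SMADs, had 20 to 57 reads per library in BAT, 5 to 15 in iWAT adipocytes and 2 to 4 in eWAT adipocytes. BAT did not overlap either depot (-2.74, SE 0.32 for iWAT over BAT and -4.22, SE 0.34 for eWAT over BAT).

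Of the SMADs of the TGF-β and activin branch and the shared Smad4, Smad3 was the 1 called between the depots. Smad2 had 10.2 ± 0.373 RPKM in iWAT, 9.58 ± 0.503 in eWAT and 4.60 ± 0.417 in BAT. It was not called between the depots (0.09, SE 0.05) and was called higher than in BAT in iWAT (0.54, SE 0.06) and eWAT adipocytes (0.47, SE 0.07). Smad4 had 12.4 ± 0.933, 11.7 ± 0.649 and 6.68 ± 0.711 RPKM in the same order, again with no call between the depots (0.09, SE 0.05) and with calls over BAT of 0.29, SE 0.06 and 0.23, SE 0.06. Smad3 had 3.68 ± 0.441, 2.33 ± 0.344 and 1.77 ± 0.187 RPKM and was called higher in iWAT than in eWAT adipocytes (0.66, SE 0.11) and than in BAT (0.44, SE 0.08), both without overlap.

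Both inhibitory SMADs, which are induced by the pathway they restrain, were called higher in iWAT than in eWAT adipocytes. Smad6 (chr9:63800883-63869866, minus strand) had 4.82 to 7.47 RPKM (median 6.56) in iWAT, 1.28 to 3.0 (median 2.41) in eWAT and 2.71 to 5.08 (median 3.68) in BAT. On scaled counts, eWAT adipocytes overlapped neither of the others. Smad6 was 2.83-fold higher in iWAT (1.5, SE 0.22, adjusted p = 4.92e-05) and 2.51-fold higher in BAT (-1.33, SE 0.22, adjusted p = 3.70e-05) than in eWAT adipocytes. Smad7 had 9.29 ± 1.91, 4.91 ± 1.58 and 2.41 ± 0.929 RPKM in iWAT, eWAT and BAT, and was called higher in iWAT than in eWAT adipocytes (0.93, SE 0.22, with overlap) and than in BAT (1.34, SE 0.21). All 6 endothelial markers were called higher in iWAT than in eWAT adipocytes (median 1.67) and higher in BAT than in eWAT adipocytes (median of eWAT over BAT -1.52), and their part in the values of Smad6 and Bmp6 was not tested.

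The 3 members of the follistatin family that could be tested were all called higher in iWAT than in eWAT adipocytes and than in BAT. Of all genes tested, 34.1% and 38.1% were called in these directions. Fstl1 (chr16:37776959-37836602, plus strand), a secreted glycoprotein, had 16.8 to 35.7 RPKM (median 31.9) in iWAT, 12.4 to 21.2 (median 14.8) in eWAT and 2.69 to 3.91 (median 3.54) in BAT. The lowest iWAT value, from library 3, lay within the range of eWAT, and the other 5 lay above it. Fstl1 was 1.87-fold higher in iWAT than in eWAT adipocytes (0.90, SE 0.19, adjusted p = 8.87e-04), 5.70-fold higher in iWAT adipocytes than in BAT (2.51, SE 0.14, adjusted p = 2.41e-10) and 3.10-fold higher in eWAT adipocytes than in BAT (1.63, SE 0.13, adjusted p = 1.96e-08).

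Fstl3, which binds activins and myostatin, had 4.80 to 8.46 RPKM (median 5.36) in iWAT, 1.05 to 3.05 (median 2.81) in eWAT and 0.445 to 0.707 (median 0.488) in BAT. Only eWAT adipocytes and BAT overlapped, on scaled counts. The log2 fold changes were 1.31, SE 0.26, adjusted p = 5.93e-04 for iWAT over eWAT, 2.83, SE 0.18 for iWAT over BAT and 1.54, SE 0.26 for eWAT over BAT. The span of the Fstl3 row shares 1157 bases with Prssl1 on the opposite strand, without an exon overlap in GENCODE vM1. Fst, the classical activin trap, had 1.41 ± 0.267, 0.734 ± 0.201 and 0.530 ± 0.113 RPKM in the same order, with calls of 0.95, SE 0.17 for iWAT over eWAT and 0.80, SE 0.17 for iWAT over BAT. Of the 7 fibroblast and progenitor markers, 4 were called higher in iWAT than in eWAT adipocytes, led by Dpt (2.48) and Cd34 (1.37), and their part in these values was not tested.

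Of the 4 genes that share the spelling but have another function, Tgfb1i1 had 3.43 ± 0.469 RPKM in iWAT, 1.23 ± 0.320 in eWAT and 1.37 ± 0.361 in BAT and was called higher in iWAT than in either (1.48, SE 0.15, and 0.70, SE 0.14). Its call of BAT over eWAT adipocytes (-0.75, SE 0.18) turned to 0.16 without scaling. Bmp1, which trims procollagens, had 2.82 ± 0.564, 2.22 ± 0.367 and 1.15 ± 0.157 RPKM and was called higher than in BAT in iWAT (0.67, SE 0.11) and eWAT adipocytes (0.36, SE 0.11). The call of Bmp1 in iWAT over eWAT adipocytes (0.35, SE 0.14, adjusted p = 0.0365) was lost without any one of iWAT libraries 1, 2, 4 and 5 or eWAT libraries 1, 3, 5 and 16 (0.27 to 0.35, adjusted p = 0.0507 to 0.0799). Tgfbrap1 had 4.0 ± 0.203, 3.84 ± 0.138 and 2.66 ± 0.291 RPKM and was not called in any comparison. The Bmp2k row with the highest level lies on chromosome 16, where GENCODE vM1 has no Bmp2k exon, and had 7.32 ± 1.28, 8.48 ± 0.528 and 1.2 ± 0.215 RPKM. Its log2 fold changes over BAT were 2.06, SE 0.16 for iWAT and 2.28, SE 0.13 for eWAT adipocytes, and those of the row on chromosome 5 were 1.15, SE 0.09 and 1.34, SE 0.08.

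Tgfb1, Tgfbr1, Gdf15, Gdf3, Inhba and Bmpr1b, which were called higher in eWAT adipocytes than in each other tissue, stand beside macrophage markers that differed in the same direction. The median log2 fold change of the 8 markers was -2.26 for iWAT over eWAT, 4.13 for iWAT over BAT and 6.57 for eWAT over BAT. Their summed level did not overlap between any of the tissues, and neither did the levels of Tgfb1 and Tgfbr1. Of the 4 mesothelial markers tested, 3 were also called higher in eWAT than in iWAT adipocytes, and 3 higher and 1 lower in eWAT adipocytes than in BAT. The part of the macrophage and mesothelial markers in the values of these 6 genes was not tested.

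**Figure D4:**
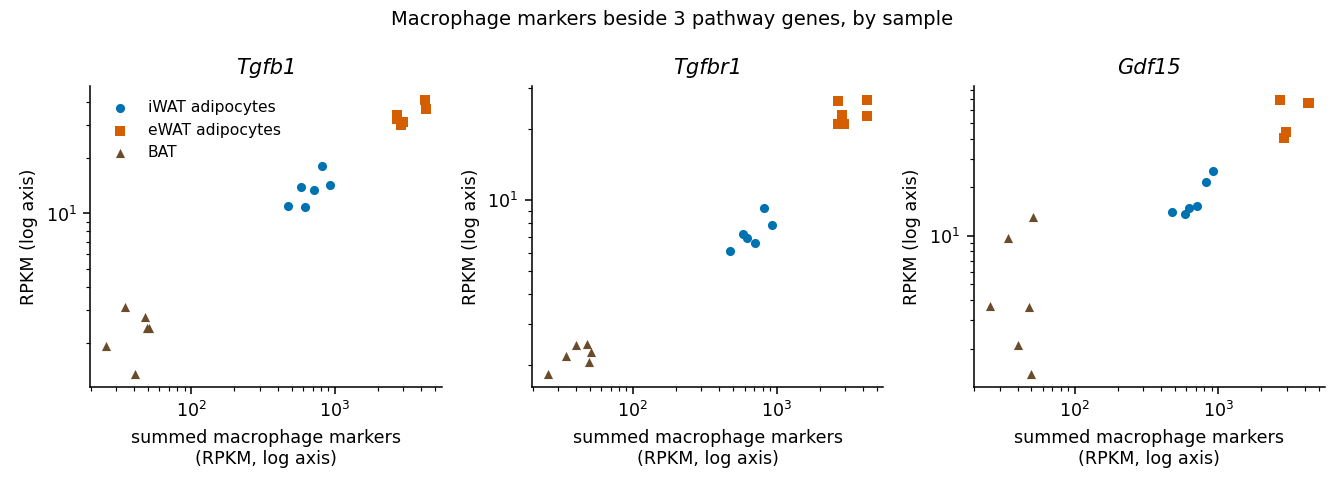
RPKM of Tgfb1, Tgfbr1 and Gdf15 (log axes) against the summed RPKM of 8 macrophage markers (log axis), 1 point per library of iWAT adipocytes (blue circles), eWAT adipocytes (orange squares) and BAT (brown triangles). The eWAT libraries lie at 2689 to 4293 RPKM of markers and above all others for each gene.

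Further genes of the pathway, outside the members, were taken from fixed lists, and the 2 largest calls in each direction are named. Calls were common among all genes tested, with 34.1% higher in iWAT and 34.5% in eWAT adipocytes between the depots. Over BAT, 38.1% of all genes were higher and 37.2% lower in iWAT adipocytes, and 41.1% and 41.4% in eWAT adipocytes. Of 21 extracellular antagonists and binding proteins, 14 were tested between the depots, with 8 called higher in iWAT and 1 in eWAT adipocytes (median 0.44 against 0.00 over all genes). Htra1, a secreted protease (65.7 RPKM in iWAT and 24.2 in eWAT adipocytes, 1.45, SE 0.25), and Tmeff1 (6.58 and 2.47, 1.42, SE 0.29) led in iWAT, and Fbn1, the matrix protein fibrillin 1 (2.15 and 3.35, -0.65, SE 0.27), was the 1 gene higher in eWAT. Over BAT, 9 of 13 were called higher in iWAT adipocytes (median 1.26), led by the BMP antagonists Chrdl1 (9.45 RPKM against 0.332 in BAT, 4.22, SE 0.15) and Chrd (3.47, SE 0.22). In eWAT adipocytes, 9 of 13 were called higher (median 0.99), led by Chrdl1 (3.56, SE 0.27) and by Nog, which encodes noggin (3.01, SE 0.51). Dand5 was called higher in BAT than in iWAT (-1.44, SE 0.11) and eWAT adipocytes (-1.99, SE 0.14), and Tmeff1 higher in BAT than in eWAT adipocytes (-1.56, SE 0.30).

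Of 13 genes of TGF-β latency and activation, 11 were tested between the depots, with 4 higher in iWAT and 4 in eWAT adipocytes (median 0.10). Ltbp4, a latent TGF-β binding protein (22.1 RPKM in iWAT and 7.69 in eWAT adipocytes, 1.51, SE 0.30), and the protease Tll1 (1.31, SE 0.31) led in iWAT. Lrrc33, which anchors latent TGF-β on myeloid cells (11.4 and 37.4 RPKM, -1.71, SE 0.17), and the integrin chain Itgav (3.32 and 7.83, -1.23, SE 0.09) led in eWAT adipocytes, the tissue where macrophage markers were also highest. Over BAT, 6 were higher and 1 lower in iWAT adipocytes (median 0.61), and 7 higher and 3 lower in eWAT adipocytes (median 0.99). Thbs1, thrombospondin 1, an activator of latent TGF-β, had 91.9 RPKM in iWAT and 71.3 in eWAT adipocytes against 3.0 in BAT (4.33, SE 0.42, and 3.98, SE 0.43). Lrrc33 followed (2.71, SE 0.16, and 4.45, SE 0.13). Ltbp2 had 8.66 RPKM in BAT against 1.62 and 1.52 (-3.03, SE 0.10, and -3.11, SE 0.17), and Ltbp4 was also higher in BAT than in eWAT adipocytes (-1.49, SE 0.21).

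Of 14 other ligands, receptors and co-receptors, 8 were tested between the depots, with 6 higher in iWAT and 0 in eWAT adipocytes (median 0.68). Neo1 (1.31 and 0.604 RPKM, 1.12, SE 0.18) and the BMP co-receptor Rgma (3.59 and 1.69, 1.10, SE 0.24) led. Against BAT, 3 were higher and 2 lower of 7 in iWAT adipocytes (median 0.09), and 2 higher and 4 lower in eWAT adipocytes (median -0.64). The decoy receptor Bambi (2.54, SE 0.27, and 1.90, SE 0.23) and Amhr2, the receptor of anti-Müllerian hormone (1.35, SE 0.29, and 0.70, SE 0.31, at no more than 0.417 RPKM on average), were higher in the white depots. Hfe2, the co-receptor hemojuvelin of muscle and liver, had 0.642 RPKM in BAT against 0.0678 and 0.0204 (-3.80, SE 0.72, and -5.49, SE 0.82), and all 5 skeletal muscle markers were also called higher in BAT than in either depot; their part in the value of Hfe2 was not tested. Rgmb was called higher in BAT than in iWAT adipocytes (2.83 RPKM in iWAT adipocytes and 2.30 in BAT, -0.31, SE 0.08, turning to 0.54 without scaling), and Eng, known from endothelium, higher in BAT than in eWAT adipocytes (14.9 and 23.9 RPKM, -1.27, SE 0.12).

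Of 19 intracellular regulators of SMADs, 18 were tested between the depots, with 5 higher in iWAT and 7 in eWAT adipocytes (median -0.01). Zfyve9, the SMAD anchor SARA (0.72, SE 0.05), and the phosphatase Ppm1a (0.41, SE 0.10) led in iWAT. The adaptor Dab2 (8.50 RPKM in iWAT and 28.1 in eWAT adipocytes, -1.72, SE 0.15) and the repressor Tgif1 (4.86 and 14.1, -1.53, SE 0.15) led in eWAT. Over BAT, 9 were higher and 5 lower in iWAT adipocytes (median 0.17), and 9 higher and 6 lower in eWAT adipocytes (median 0.15). Ppp1r15a, a stress-induced phosphatase subunit, had 75.3 and 70.8 RPKM in the depots against 4.23 in BAT (3.54, SE 0.17, and 3.48, SE 0.18), and Tgif1 was also higher (2.06, SE 0.19, and 3.62, SE 0.16). Tab1 (-0.73, SE 0.12, and -0.73, SE 0.13) and Zfyve9 (-0.57, SE 0.07, and -1.27, SE 0.08) were called higher in BAT. Their RPKM were close between iWAT adipocytes and BAT, at 1.94 and 2.12 for Tab1 and 1.74 and 1.70 for Zfyve9, and without scaling these values turned to 0.11 and 0.29, and that of Tab1 for eWAT over BAT to 0.17.

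Of 19 target genes, 18 were tested between the depots, with 9 higher in iWAT and 6 in eWAT adipocytes (median 0.48). The BMP targets Id1 (22.9 RPKM in iWAT, 6.36 in eWAT and 21.4 in BAT, 1.84, SE 0.29 for iWAT over eWAT) and Atoh8 (1.58, 0.480 and 1.70, 1.71, SE 0.26) led in iWAT. Timp1, an inhibitor of matrix proteases (2.24 and 8.13 RPKM, -1.86, SE 0.20), and the TGF-β-induced matrix protein Tgfbi (10.2 and 35.1, -1.77, SE 0.15) led in eWAT adipocytes. The list does not divide by branch in this way, as Id2 had 9.33 RPKM in iWAT and 23.5 in eWAT adipocytes, and Pmepa1 91.1 and 30.0. Over BAT, 14 were higher and 2 lower in iWAT adipocytes (median 1.17), and 12 higher and 4 lower in eWAT adipocytes (median 1.30). Among the targets higher in the depots were Bambi in iWAT adipocytes and Timp1 in eWAT adipocytes (3.83, SE 0.24). Atoh8 (-2.40, SE 0.16) and Id1 (-2.33, SE 0.21) were higher in BAT than in eWAT adipocytes. Over iWAT adipocytes, Atoh8 (-0.73, SE 0.23) and Pmepa1 (91.1 RPKM in iWAT adipocytes and 84.2 in BAT, -0.48, SE 0.16) were called higher in BAT, and these values turned to 0.14 and 0.36 without scaling.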

How the data were processed

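Libraries were made by the authors with the NEBNext Ultra kit, run on a HiSeq instrument and mapped to mm9. The submitters' processing notes name cutadapt 1.16 and HISAT2 2.1.0, while the counting program and annotation are not given in the sources used here. Each of the 18 deposited files holds, for every transcript row, a whole-number read count and an RPKM value derived from it by the authors. Groups are the tissues named in the labels.

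Counts were compared with edgeR 4.0.16 in R 4.3.3 (quasi-likelihood F-test, two-sided, TMM scaling, 12 samples per comparison). A gene was tested where its count averaged 10 or more, with Benjamini-Hochberg adjustment across every gene tested and a threshold of 0.05. One row per symbol was used. At most 3 reads in every library of a tissue counted as the floor, and floors cover counting error only. The test was first checked on simulated data. Alternatives were DESeq2 1.42.0, limma 3.58.1 on log2(RPKM + 0.1) for rows with a mean of at least 0.1 RPKM, no scaling, no filter, summed rows, 1 fit of all 18 samples, lane, a replicate block, and a log2 fold change of at least 1.

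Members and lists were chosen with earlier results of these data known. Values are given for the 10 members with the highest level in each tissue and, in each comparison, for the 8 with the largest change in each direction, and the remaining members are accounted for too. Of the pathway lists, the 2 largest calls in each direction are named, and of the cell type markers those of lists set beside a result. The values of 1 target gene are not reported here. No 2 libraries of a tissue agreed within sampling noise. Tables and plots were made with Python 3.11.15, pandas 2.3.3, numpy 2.4.6 and matplotlib 3.10.9, and overlaps of rows used GENCODE vM1.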

Additional observations from a re-analysis of the deposited data

Results flagged for a closer look

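Single libraries that stood apart from the other 5 of their tissue (by Dixon's test of the gap to the nearest value over the range) were found for 17 of 158 groups of values, 8 of which rest on 0 or 1 read. Among the 142 groups with more than 3 reads in a library they were found for 10, where chance alone gives 7.1. Of the 17, 4 came from the BAT library numbered 16, with Fstl1 at 2.69 RPKM (the others 3.46 to 3.91), Smad2 at 3.79 (4.52 to 4.91), Gdf6 at 0.0494 (0.0116 to 0.0257) and Bmp8a at 0.0181 (1 read, the others at 0).

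In iWAT adipocytes, Fstl1 was at 16.8 RPKM in library 3 (the others 30.7 to 35.7), Fstl3 at 8.46 in library 2 (4.80 to 6.00), the Gdf9 row at 11.8 in library 5 (14.5 to 15.7) and Bmp5 at 0.452 in library 5 (55 reads, the others 0.0571 to 0.142). Bmp8a was at 0 in library 2.

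In eWAT adipocytes, Bmp8b was at 0.390 RPKM in library 3 (0.185 to 0.257) and Inha at 0.0809 in library 16 (4 reads, the others 0 to 0.0228). The remaining values rest on 1 read: Bmp10 at 0.0256 in library 3, Inhbe at 0.0177 and Bmp8a at 0.0157 in library 4, Fstl4 at 0.00628 in library 16 and Gdf2 at 0.00813 in library 1. In BAT, Gdf2 was at 0.00868 in library 2, also 1 read.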

How the results depend on the processing

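Values of the 31 members named by the rule were recomputed 746 times over the alternatives, of which 705 kept direction and side of the threshold, 18 fell short of it, 12 newly passed it and 11 turned. Without scaling, iWAT over BAT turned to 0.34 for Bmp6, 0.18 for Bmpr2 and 0.37 for Tgfbr2, and eWAT over BAT to 0.12 for Smad5, 0.16 for Tgfb1i1, 0.72 for Tgfbr2 and 0.048 for Tgfbr3. With limma, Tgfbr2 turned to 0.086 for iWAT over BAT and 0.39 for eWAT over BAT. With rows summed, Bmpr2 turned to 1.21 and 0.80. Between the white depots no called member turned without scaling, with DESeq2 or with limma. Without scaling, eWAT adipocytes over BAT had 29 members higher and 7 lower (64.6% and 20.3% of all genes tested), and with limma 5 members were higher in BAT than in iWAT and 9 than in eWAT adipocytes (20.4% and 26.2% of all genes tested). With a log2 fold change of at least 1 required, 17 members differed between the depots (11 higher in iWAT), 21 between iWAT and BAT (15 higher in iWAT) and 23 between eWAT and BAT (10 higher in BAT). Of all genes tested, 13.0% were then higher in iWAT than in eWAT adipocytes. Another 18.2% were higher in iWAT adipocytes than in BAT, and 25.3% higher in BAT than in eWAT adipocytes, each in its own comparison.

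Leaving out 1 library at a time, chosen after seeing the data, 29 to 31 members differed between the depots (23 to 24 higher in iWAT, 6 to 7 in eWAT), 32 to 35 between iWAT and BAT (23 to 26 higher in iWAT, 9 in BAT) and 35 to 36 between eWAT and BAT (19 to 20 higher in eWAT, 16 to 17 in BAT). Of all genes tested, 32.1% to 34.4% were higher in iWAT and 32.1% to 35.0% in eWAT adipocytes between the depots. Between iWAT adipocytes and BAT, 36.6% to 37.9% were higher in iWAT and 36.1% to 37.4% in BAT. Between eWAT adipocytes and BAT, 40.3% to 40.8% were higher in eWAT and 40.8% to 41.4% in BAT. No called member turned. Besides Gdf15 and Bmp1, calls changed for Tgfbr2 (called between the depots without iWAT library 5, and for eWAT over BAT without eWAT library 3 or BAT library 2 or 17), Bmp2k (without iWAT library 16), Bmp4 (iWAT over BAT, without iWAT library 16), Smad7, Smad3 and Tgfb2 (eWAT over BAT, without eWAT libraries 1, 2 and 16). Gdf3 was no longer tested for iWAT over BAT without iWAT library 3 or 5. Without BAT library 5 the fitted values of Gdf3 over BAT were 5.11 and 7.68, against a tissue at the floor.

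The titles number the samples, but same-numbered samples are not stated to come from 1 animal. Their deviations correlated at -0.22 to 0.34, and 1 of 6, 1 of 4 and 2 of 4 pairs correlated best with their own number, so the numbers were not taken as pairs, and whether they mark the same animal is not known. With the number as a replicate block, 30, 32 and 31 members differed in the 3 comparisons, against 30, 32 and 35 on the same samples without it. Of all genes tested, 12836 of 19623, 12486 of 19667 and 15147 of 20091 differed with the block, against 13454, 12949 and 15456 without it. With the block, Acvr2a, Bmp1, Bmp4 and Smad4 lost their call for eWAT over BAT (adjusted p = 0.0568, 0.0642, 0.0582 and 0.0764).

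Genes whose count averaged under 10 reads over both tissues of a comparison were not tested. Genes with few reads in 1 tissue could still pass, such as Smad9 (2 to 4 reads in eWAT adipocytes) and Gdf3 (0 to 2 in BAT). The size of their fold changes rests on these few reads. RPKM hides which of 2 overlapping genes a read came from, and preparation and lane go with tissue for BAT. Between the white depots, lane as a covariate gave 30 members, and 13018 of all 19623 genes tested.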
